A study of Homo sapiens with 12 samples.

Results

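Long intergenic noncoding RNAs (lincRNAs) carrying a LINC number in their symbol were described here in HT1080 cells. The genes were chosen as the rows whose symbol is LINC followed only by digits and whose mean over the 12 libraries was at least 1 TPM (a transcript's relative abundance in a library, scaled for its length). This rule took 163 of the 2110 LINC rows in a table of 56227 rows. A further 1173 LINC rows were listed at 0 in all libraries. The mean level chose the genes, so it is given as a description only.

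HT1080 is an established human fibrosarcoma line that carries a mutant NRAS gene. The 12 libraries formed 4 groups of 3: siNC with DMSO, siNC with poly(dA:dT), siQ61K with DMSO and siQ61K with poly(dA:dT). siNC served as the control siRNA, and siQ61K is named for the mutant form of NRAS. Poly(dA:dT) is a synthetic double-stranded DNA that is sensed in the cytosol, and DMSO stood in its place in the other groups. The study asked how lowering mutant NRAS changes the interferon response. All groups came from 1 cell line and 1 siRNA against NRAS, and no source says whether the libraries within a group are separate cultures. Each p-value therefore reflects the spread between libraries alone, and that spread may be technical.

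LincRNAs are transcribed by RNA polymerase II from regions between protein-coding genes, and most are spliced and polyadenylated like mRNAs but encode no known protein. Many are expressed at low levels and in few cell types. Some act on the genes next to them, through their transcription or their enhancer sequence, and others act elsewhere as scaffolds or decoys for proteins and RNAs. RAS proteins drive the RAF-MEK-ERK cascade, whose transcription factors include the ETS family and AP-1, a dimer of FOS and JUN proteins.

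The promoters below belong to LINC genes with large or repeated differences under siQ61K. Promoters of 103 of the 163 genes were matched in the RefSeq table (GRCh38.p14), each running from 250 bases before to 50 bases after the gene start. The first 3 promoters below belong to genes that fell under siQ61K with DMSO and with poly(dA:dT), and the last to a gene that rose in both. Capitals mark matches to the AP-1 motif TGANTCA, where N is any base. These promoters are examples: most promoters of genes that fell held no match, and some promoters of genes that rose did. LINC02535 lies at chr6:85404753-85405052 on the minus strand, LINC01615 at chr6:169162940-169163239 on the minus strand, LINC01812 at chr2:67825513-67825812 on the minus strand and LINC01638 at chr22:27224630-27224929 on the minus strand.
LINC02535: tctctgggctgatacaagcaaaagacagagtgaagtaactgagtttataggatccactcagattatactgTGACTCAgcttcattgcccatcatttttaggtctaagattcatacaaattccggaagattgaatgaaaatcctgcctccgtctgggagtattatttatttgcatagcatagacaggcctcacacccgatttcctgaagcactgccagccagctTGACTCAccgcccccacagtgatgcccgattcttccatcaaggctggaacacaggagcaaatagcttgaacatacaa
LINC01615: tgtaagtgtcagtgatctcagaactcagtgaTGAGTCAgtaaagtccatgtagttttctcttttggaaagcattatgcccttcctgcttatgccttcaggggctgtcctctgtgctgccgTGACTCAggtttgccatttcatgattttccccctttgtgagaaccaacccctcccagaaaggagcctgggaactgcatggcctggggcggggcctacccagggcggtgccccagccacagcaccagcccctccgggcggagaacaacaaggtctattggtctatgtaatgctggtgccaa
LINC01812: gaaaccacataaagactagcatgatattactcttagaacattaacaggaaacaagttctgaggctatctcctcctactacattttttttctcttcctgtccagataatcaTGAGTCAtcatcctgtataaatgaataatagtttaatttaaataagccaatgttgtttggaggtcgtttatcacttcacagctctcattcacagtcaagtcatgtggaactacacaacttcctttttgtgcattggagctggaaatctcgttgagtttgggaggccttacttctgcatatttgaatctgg
LINC01638: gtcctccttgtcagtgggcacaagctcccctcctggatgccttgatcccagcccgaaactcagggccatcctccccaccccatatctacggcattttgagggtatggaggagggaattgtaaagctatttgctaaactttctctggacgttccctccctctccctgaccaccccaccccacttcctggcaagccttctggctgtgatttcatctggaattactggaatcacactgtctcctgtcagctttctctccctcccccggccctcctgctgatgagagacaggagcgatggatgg

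The motif TGANTCA was searched on both strands. It was found in 20 of the 103 promoters (19.4%), in 198 of 1475 promoters of other LINC genes in the RefSeq table (13.4%) and in 7.76% of all 27305 promoters of that length. Among the genes that fell in either siQ61K comparison, 6 of 17 promoters held it (35.3%). It was in 4 of 19 promoters of genes that rose (21.1%) and in 10 of 67 promoters of genes called in neither comparison (14.9%). The 6 were those of LINC02535, LINC01615, LINC01812, LINC00973, LINC00339 and LINC00702. The 4 of genes that rose were those of LINC00963, LINC02762, LINC02709 and LINC02009. LINC02535 and LINC01615 each held 2 matches. A match is a run of letters and not a measured binding site. The other motifs searched on both strands were GAAANNGAA, a short form of the interferon-stimulated response element, CCGGAAGT, an ETS site, and TTCNNNGAA, the STAT site known as GAS. They were found in 7.77%, 2.91% and 8.74% of the LINC promoters, against 8.29%, 4.44% and 7.88% of all promoters.

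LINC gene levels were uneven. LINC01029 stood at a mean of 406 TPM and made up 31.6% of the summed mean of the 163 genes, and the top 10 made up 53.6%. The next 5 were LINC00520 (67.3 TPM), LINC02802 (38.4 TPM), LINC00963 (32.6 TPM), LINC01234 (28.8 TPM) and LINC00221 (26.4 TPM). LINC00520 is known as an enhancer-associated RNA of endothelial cells, and LINC00963 was described in prostate cancer cells. The median of the 163 means was 2.29 TPM, with 25 genes at 10 TPM or more and 66 under 2 TPM. Just inside the threshold stood LINC01521, LINC01311 and LINC01635 at 1.01 TPM each. Just outside stood LINC00519 (0.988 TPM), LINC02193 (0.971 TPM) and LINC00355 (0.9652 TPM). LINC00519 was at 0.157, 0.360 and 0.122 TPM with siNC and DMSO and at 1.75, 1.90 and 1.31 TPM with siQ61K and DMSO, so the threshold on the mean leaves out a gene with a difference of this kind.

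**Figure D1:**
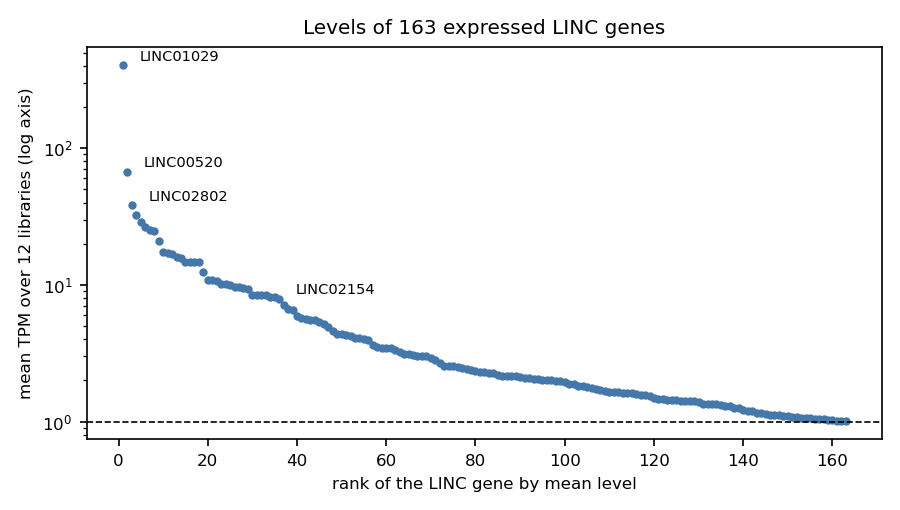
Mean TPM over the 12 libraries (log axis) of the 163 LINC genes, in order of level; the dashed line is the rule's threshold of 1 TPM. LINC01029, at 406 TPM, stands far above the others, and LINC02154 lies at 7.93 TPM.

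Together the 163 genes held 0.115% to 0.145% of the listed TPM of a library. Their sum lay between 1298 and 1398 TPM with siNC and DMSO, between 1110 and 1200 TPM with siNC and poly(dA:dT), between 1290 and 1336 TPM with siQ61K and DMSO, and between 1265 and 1361 TPM with siQ61K and poly(dA:dT). The siNC poly(dA:dT) libraries had the lowest sums of the 12, and this rested in part on LINC01029. Without it their sums were 805, 859 and 870.3 TPM, which overlapped the 843 to 873 TPM of siQ61K with poly(dA:dT). Against siNC with DMSO, at 870.27 to 914 TPM, only the highest of them overlapped. Their mean without LINC01029, 845 TPM, was still the lowest of the groups. Of the 163 genes, 132 reached 1 TPM in a library of every group, none did so in 1 group only, and 72 were at 1 TPM or more in all 12 libraries. The spread between replicate libraries grew as levels fell. The median coefficient of variation within a group was 17.4% for the 46 genes at 5 TPM or more and 46.4% for the 66 genes under 2 TPM. Of the 46 genes at 5 TPM or more LINC01358 had the highest median coefficient of variation (83.5%), with 4.34, 10.1 and 36.1 TPM in the siNC DMSO libraries.

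GENCODE 29 held 162 of the 163 genes, and 124 were annotated there as lincRNA. A further 15 were processed transcripts and 12 antisense RNAs. The kit is not stated to mark strand, and 54 genes share exon sequence with another gene, 43 of them with a gene on the opposite strand. For these genes the reads of the partners cannot be told apart. LINC02693 is annotated as protein-coding in GENCODE 29, and LINC00475 as a transcribed pseudogene. The median length of the longest transcript was 2022 bases for the LINC genes and 3222 bases for all tested genes, and the median GC content was 47.83% and 48.16%.

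The labels were checked on NRAS, which stood at 53.9 ± 10.8 TPM (SD, n = 3) with siNC and 16.9 ± 2.63 with siQ61K under DMSO. With poly(dA:dT) it stood at 46.9 ± 4.47 and 21.3 ± 1.91 TPM. The exact two-sided permutation test gave p = 0.1 in each, the smallest it can give for 3 against 3. VIM, a mesenchymal marker, lay between 4728 and 7743 TPM, whereas the fibroblast marker THY1 was at most 0.126 TPM and COL1A1 at most 11.7 TPM. EPCAM, CDH1 and PTPRC, markers of epithelial cells and leukocytes, were at or near 0. Replicate libraries correlated at 0.966 to 0.984 across genes, and the depth of the libraries is unknown. Of 12 ERK target genes used as a check, 10 fell with siQ61K under DMSO and 9 with poly(dA:dT). Of 10 interferon-stimulated genes used as a check, 6 rose with poly(dA:dT) under siNC and 9 under siQ61K.

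LINC genes changed in both directions when siQ61K was compared with siNC under DMSO. Of 162 genes tested, 26 were higher and 18 lower with siQ61K by limma with Benjamini-Hochberg adjustment over all 14722 genes tested (adjusted p under 0.05, here named a call). These 44 genes were 27.2% of the 162, against 31.5% of all genes tested. The share higher was 16.0% against 16.6% of all genes, and the share lower 11.1% against 14.8%, so neither stood above the background in the values as deposited. The rule on the mean admits some genes through the libraries where they are high. Of the 26 higher genes, 11 had a mean under 1 TPM over the siNC libraries, and of the 18 lower genes, 4 had one over the siQ61K libraries. Those genes had to differ to be included, so their tests and the counts that hold them are a description. Fold changes are on the log2(TPM + 1) scale, which understates the change of low genes, and the standard errors (SE) come from the fitted model. They ran from 0.40 to 3.34 among the genes that rose and from -0.55 to -1.59 among those that fell, and 13 genes in each direction moved by more than 1. Their median over the 162 was 0.08, against 0.01 over all genes. In bulk RNA, fewer cells making a transcript and less of it in each cell cannot be told apart.

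LINC02154 rose most, from 0.264, 0.901 and 1.10 TPM with siNC to 15.5, 17.4 and 16.4 TPM with siQ61K. Every siQ61K library was far above every siNC library. This was the highest log2 fold change of the 162 genes, 3.34 (SE 0.218, adjusted p = 9.54e-07 by limma), and the exact permutation p was 0.1. Its nearest protein-coding genes, FAM9C and ATXN3L on chromosome X, did not pass the filter on low values. LINC01638, an RNA studied in triple-negative breast cancer, was listed at 0 in all 3 siNC DMSO libraries. It stood at 3.23, 4.0 and 4.6 TPM with siQ61K (adjusted p = 1.66e-05). No fold is given against a group listed at 0. Both LINC02154 and LINC01638 had a mean under 1 TPM over the siNC libraries. The rule admitted them through the siQ61K libraries, where they are high, so their tests are a description.

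The next genes that rose were low with siNC and were several times higher with siQ61K. LINC01137, which starts beside ZC3H12A, went from 2.13, 2.95 and 3.09 TPM to 11.2, 9.87 and 10.03 TPM (log2 fold change 1.62, SE 0.217). LINC02615 went from 0.557, 1.20 and 0.560 TPM to 4.24, 4.92 and 5.02 TPM (1.71, SE 0.239). LINC02709 went from 0.488, 0.792 and 1.26 TPM to 4.52, 4.66 and 4.74 TPM (1.63, SE 0.225). In all 3 genes the groups did not overlap. LINC00452 rose from at most 0.331 TPM to between 1.72 and 2.28 TPM (log2 fold change 1.32, adjusted p = 0.00123). LINC00963, the fourth most abundant gene, rose by less, from 28.6, 32.0 and 26.1 TPM to 43.5, 44.3 and 46.1 TPM (0.61, SE 0.121, adjusted p = 0.00234). LINC00545 (1.56), LINC00640 (1.44), LINC02693 (1.38) and LINC01703 (1.16) were also called, each with at least 1 siNC library listed at 0, and each lost its call when single libraries were left out. The groups of LINC02693 overlapped. LINC02615, LINC02709, LINC00452, LINC00545, LINC00640 and LINC01703 had a mean under 1 TPM over the siNC libraries, so their tests are a description too.

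Genes that fell under siQ61K with DMSO included several of the more abundant ones. LINC02535 went from 21.1, 26.3 and 20.1 TPM to 6.54, 6.81 and 7.599 TPM (log2 fold change -1.55, SE 0.157, adjusted p = 2.90e-05 by limma). LINC00973 went from 23.6, 26.0 and 28.8 TPM to 7.39, 6.99 and 11.7 TPM (-1.51, SE 0.224). LINC02434 went from 34.4, 27.3 and 24.8 TPM to 9.41, 10.8 and 14.2 TPM (-1.26, SE 0.186). The siQ61K libraries of each lay below all siNC libraries. LINC02454, described in thyroid cancer, went from 13.8, 17.0 and 11.98 TPM to 4.83, 2.22 and 6.36 TPM (-1.55, SE 0.328). LINC01204 fell from 6.83, 13.9 and 12.9 TPM to 1.25, 3.78 and 4.54 TPM (-1.59, SE 0.355). LINC00475 (-1.52), LINC01433 (-1.40), LINC01615 (-1.26) and LINC00707 (-1.18) fell as well. LINC01433 had a mean under 1 TPM over the siQ61K libraries, so its test is a description. LINC00173 was called at -1.34, but its groups overlapped (4.26 TPM in 1 siQ61K library against 4.14 TPM in 1 siNC library) and the call was lost in 8 of 13 other settings.

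**Figure D2:**
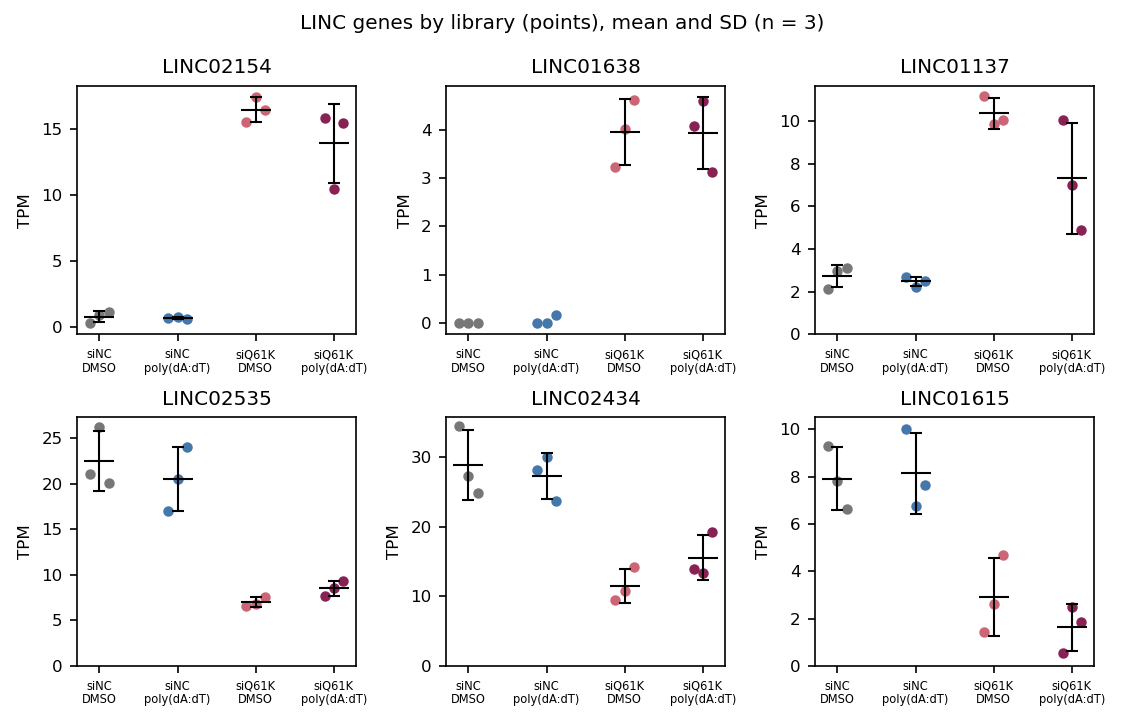
TPM of 6 LINC genes in the 12 libraries; points are libraries, and the bar and whiskers give the mean and SD of a group of 3, drawn only where no library is listed at 0. The upper genes are higher and the lower genes lower in the siQ61K libraries than in the siNC libraries, with and without poly(dA:dT).

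Of the 46 genes at 5 TPM or more, 21 were called in this comparison (45.7%, against 39.4% of all 10094 genes tested at that level). Under 2 TPM, 12 of 65 tested LINC genes were called (18.5%), and 10.3% of all 2525 genes tested under 2 TPM. The latter include genes with means below the rule's 1 TPM, so these 2 shares are not at like levels. These shares are a description. Of the 162 LINC genes, 69 had groups that did not overlap, and the same held for 45.8% of all genes tested. The 69 included 25 of the 26 higher and 17 of the 18 lower calls. The count of 44 became 26 without library 1 of siNC with DMSO and 28 without library 1 of siQ61K with DMSO. Fold changes also followed GC content, with a Spearman correlation of 0.29 across the 162 LINC genes and 0.50 across all genes, a description since genes are not independent. After each library was smoothed for GC content and length, 31 genes were called higher and 15 lower, 28.4% of the 162 against 27.5% of all genes. Of these calls, 39 were among the 44. The share higher was then 19.1% against 13.1% of all genes, above the background, and the share lower 9.26% against 14.4%. The rule admits some genes through the siQ61K libraries where they are high, so the higher share is not read as particular to the LINC genes.

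The comparison was repeated in the poly(dA:dT) libraries, which share no library with the first. Both comparisons came from 1 fit with a shared estimate of the spread, and the rule on the mean used all 12 libraries. Their calls are therefore not independent. Here 18 LINC genes were higher and 16 lower with siQ61K, 21.0% of the 162 against 21.4% of all genes tested. The share higher was 11.1% against 8.71% of all genes, and the share lower 9.88% against 12.6%. Of the 18 higher genes, 9 had a mean under 1 TPM over the siNC libraries, and of the 16 lower genes, 2 had one over the siQ61K libraries. Groups did not overlap for 57 of the 162 LINC genes, and for 36.7% of all genes tested. Of the 34 genes called, 24 were also called under DMSO, 70.6% of the 34 and 54.5% of the 44. Over all genes tested, 1434 were called in both, 45.6% of the calls with poly(dA:dT) and 31.0% of those under DMSO, and 1252 of them had the same direction. All 24 LINC genes had the same direction in both comparisons, 14 higher and 10 lower. Of the 14, 7 had a mean under 1 TPM over the siNC libraries (LINC02154, LINC01638, LINC02615, LINC02709, LINC00452, LINC01503 and LINC02009), and of the 10, LINC01812 and LINC01433 had one over the siQ61K libraries. The rule admitted these 9 through the groups where they are high. Their tests in both comparisons are therefore a description, and the higher shares of the LINC genes are not read as particular to the LINC genes.

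Among the genes that rose in both, LINC02154 stood at 0.666, 0.747 and 0.558 TPM with siNC and at 15.8, 10.4 and 15.5 TPM with siQ61K (log2 fold change 3.15, SE 0.218, adjusted p = 9.75e-07 by limma). LINC01638 stood at 0, 0 and 0.175 TPM with siNC and at 4.07, 4.58 and 3.12 TPM with siQ61K (2.21, SE 0.215). LINC02762 went from 4.82, 5.41 and 4.94 TPM to 16.8, 12.03 and 16.4 TPM (1.39, SE 0.221). The groups of all 3 were far apart. LINC01137 (1.21), LINC02615 (1.38), LINC00452 (1.28), LINC02310 (1.52) and LINC01503 (1.11), a gene known as a super-enhancer RNA of squamous carcinomas, repeated their direction. LINC00520, the second most abundant gene, was higher by 0.40 under DMSO and by 0.50 with poly(dA:dT), and each of these calls was lost when single libraries were left out.

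Among the genes that fell in both, LINC01812 was lowest with poly(dA:dT), going from 3.61, 4.79 and 4.21 TPM to 0.293, 0 and 0.235 TPM (log2 fold change -2.15, SE 0.281, adjusted p = 0.000177 by limma). LINC01615 went from 10.02, 6.74 and 7.63 TPM to 0.530, 2.51 and 1.85 TPM (-1.86, SE 0.333). LINC02535 went from 17.0, 20.5 and 24.1 TPM to 7.66, 8.61 and 9.29 TPM (-1.17, SE 0.157). The siQ61K libraries of these 3 genes were all below the siNC libraries. LINC01011 (-1.42), LINC00707 (-1.16), LINC01433 (-1.10), LINC00973 (-0.98) and LINC02434 (-0.78) fell again. LINC01011 shares exon sequence with NQO2 on the same strand, so its value cannot be set apart from that gene. The other 2 genes lower in both were LINC00339 and LINC00511, named as the remainder of the 10 after their values were seen.

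**Figure D3:**
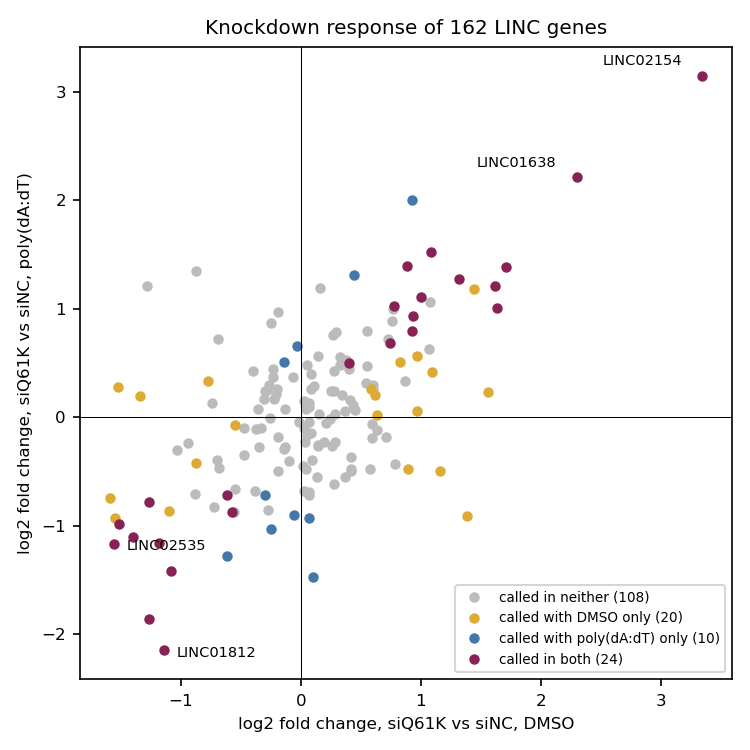
Log2 fold change of siQ61K against siNC for the 162 LINC genes, under DMSO (horizontal) and with poly(dA:dT) (vertical), coloured by call. The 24 genes called in both (dark red) all lie in the upper right or lower left part of the plot, with LINC02154 farthest out.

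Of the genes called in only 1 of the siQ61K comparisons, 20 were called under DMSO and 10 with poly(dA:dT). A call in 1 and not in the other does not show a difference, and the interaction called 5 of the 20 and 3 of the 10. With poly(dA:dT) only, LINC00944 rose from 0.469, 0.624 and 0.514 TPM to 1.89, 2.60 and 4.34 TPM (log2 fold change 1.31, adjusted p = 0.0125 by limma). LINC00115 fell from 3.83, 3.42 and 4.22 TPM to 2.35, 0.447 and 0.610 TPM (-1.28, adjusted p = 0.00646). LINC00526 fell from 3.16, 2.08 and 2.67 TPM to 0.824, 0.343 and 1.24 TPM (-1.03). LINC00526 and LINC00115 each share exon sequence with another LINC gene on the opposite strand. LINC01029 rose by 0.51 (SE 0.0945, adjusted p = 0.00235), from 306, 317 and 329 TPM to 412, 458 and 488 TPM. LINC01405 and LINC01023 were called but lost the call without most single libraries, and LINC01405 was listed at 0 in all siNC libraries and in 1 siQ61K library of each kind. LINC00944 and LINC01405 had a mean under 1 TPM over the siNC libraries. The rule admitted both through the siQ61K libraries, where they are high, so their tests are a description.

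The fold changes with poly(dA:dT) were less tied to GC content, with a Spearman correlation of -0.06 across the 162 genes and -0.24 across all genes. After the GC and length correction, 23 genes were higher and 16 lower, 24.1% of the 162 against 26.9% of all genes tested. Of the 34 called before it, 32 remained. LINC02154, LINC01638, LINC01137, LINC02615, LINC00452, LINC02535, LINC00973 and LINC00707 kept their calls in both siQ61K comparisons under every alternative and with each library left out. The rule admitted LINC02154, LINC01638, LINC02615 and LINC00452 through the siQ61K libraries, where they are high, so for these the kept calls are a description.

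Poly(dA:dT) itself called no LINC gene under siNC. Of the 162 genes, 0 passed the limma test, against 0.122% of all genes tested, and 16 had an unadjusted p under 0.05. Groups did not overlap for 24 genes, against 17.9% of all genes tested. The most abundant gene, LINC01029, stood at 428, 434 and 484 TPM with DMSO and at 306, 317 and 329 TPM with poly(dA:dT). Its groups did not overlap, but the adjusted p was 0.0857 (log2 fold change -0.50, SE 0.0945). LINC02055 stood at 9.73, 10.6 and 11.3 TPM with DMSO and at 5.76, 5.51 and 6.51 TPM with poly(dA:dT) (-0.74, adjusted p = 0.110). With limma's sample weights, 3 genes were called: LINC01029 and LINC02055 lower and LINC01006 higher. With library 1 of siQ61K with poly(dA:dT) left out, 1 gene was called, LINC01029, lower. After the GC and length correction no LINC gene was called, against 0.204% of all genes tested.

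Under siQ61K, poly(dA:dT) was followed by 2 higher and 6 lower calls among the LINC genes, 4.94% of the 162 against 25.2% of all genes tested. The share lower was 3.70% against 18.3% of all genes, and the share higher 1.23% against 6.92%. LINC genes were thus called less often than all genes here, a difference that was not tested. Their median absolute log2 fold change was 0.30, against 0.33 over all genes, and the shares were not compared at like levels. A lower share of calls does not show a smaller response. Groups did not overlap for 38 of the 162 LINC genes, and for 39.3% of all genes tested. The genes that fell were LINC00667 (log2 fold change -0.91), LINC02709 (-0.82), LINC02506 (-0.77), LINC00526 (-0.71), LINC01605 (-0.70) and LINC00963 (-0.54). Those that rose were LINC00702 (0.66) and LINC02762 (0.65).

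LINC00963 went from 43.5, 44.3 and 46.1 TPM with siQ61K and DMSO to 30.6, 32.5 and 28.2 TPM with siQ61K and poly(dA:dT) (SE 0.121, adjusted p = 0.00873 by limma). These levels are close to its 26.1 to 32.0 TPM with siNC and DMSO. LINC00667 went from 24.5, 16.5 and 23.5 TPM to 14.7, 8.34 and 10.2 TPM (SE 0.219, adjusted p = 0.0117). LINC02506 went from 12.05, 9.81 and 13.4 TPM to 6.46, 5.64 and 7.27 TPM (SE 0.188, adjusted p = 0.0124). In all 3 genes the groups did not overlap.

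The calls of poly(dA:dT) under siQ61K depended on scaling and on single libraries. The median of all genes lay at -0.15 in the deposited values and at -0.01 under both median-of-ratios scaling and quantile normalization. The 8 genes kept their direction under both, but the split of calls became 5 higher and 4 lower under the first and 8 higher and 4 lower under the second. The fold change of LINC00963 was -0.12, and not called, after the GC and length correction. That correction left 2 higher and 4 lower calls, 3.70% of the 162 LINC genes. Of all genes tested, 8.67% were then called, 5.37% higher and 3.30% lower. The count of 8 became 1 without library 2 of siQ61K with poly(dA:dT) and 18 without library 1 of that group. It became 5 without library 3 of that group, and also without library 1 or library 3 of siQ61K with DMSO. It was 0 when library 3 of siQ61K with DMSO and library 2 of siQ61K with poly(dA:dT) were both left out. The Spearman correlation with GC content was -0.35 across the 162 genes and -0.57 across all genes.

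The interaction subtracts the response to poly(dA:dT) seen with siNC from that seen with siQ61K. It was called for 10 LINC genes, 5 higher and 5 lower, 6.17% against 18.1% of all genes tested. The median absolute size of the difference was 0.40 over the LINC genes, against 0.43 over all genes. Of all genes tested, 883 were higher and 1779 lower. LINC00475 had the most positive difference (1.80, SE 0.475, adjusted p = 0.0234 by limma). It stood at 7.68, 13.2 and 7.31 TPM with siNC and DMSO and at 3.65, 3.36 and 6.001 TPM with siNC and poly(dA:dT). With siQ61K it stood at 5.21, 2.08 and 1.27 TPM and at 6.19, 5.44 and 4.53 TPM. Its level was lower with poly(dA:dT) under siNC and mostly higher under siQ61K, although neither response alone was called.

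LINC00667 had a difference of -1.37 (SE 0.310, adjusted p = 0.0150 by limma). With siNC it stood at 9.70, 10.8 and 12.5 TPM without poly(dA:dT) and at 19.05, 15.8 and 12.2 TPM with it, and the groups overlapped. With siQ61K it fell, as given above. LINC01029 had a difference of 0.65 (SE 0.134, adjusted p = 0.0115), being lower with poly(dA:dT) in every siNC library and at 401, 440 and 380 against 412, 458 and 488 TPM under siQ61K. LINC00702 (1.10), LINC02055 (0.82) and LINC00662 (0.69) were also positive, and LINC02506 (-1.0), LINC01006 (-0.92), LINC01703 (-1.65) and LINC02693 (-2.29) negative.

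**Figure D4:**
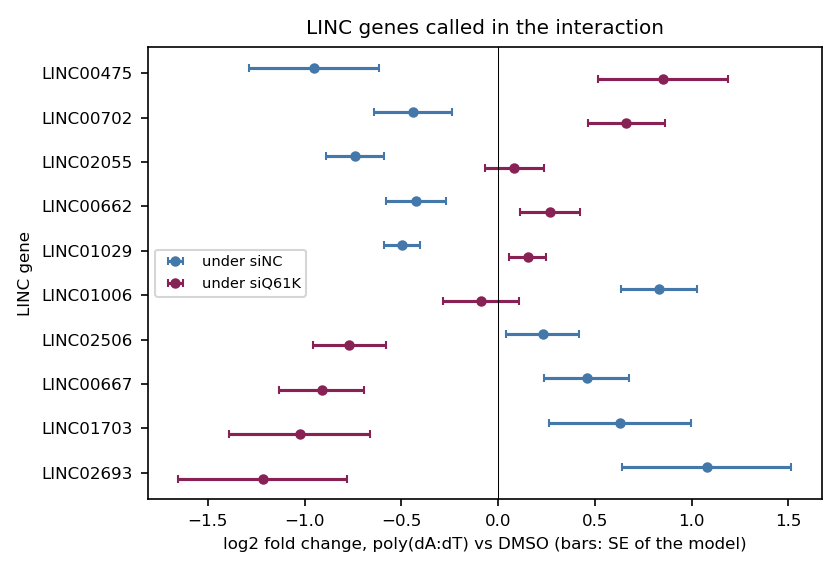
Log2 fold change of poly(dA:dT) against DMSO (points) with its model SE (bars) for the 10 LINC genes called in the interaction, under siNC (blue) and siQ61K (dark red). The responses of each gene lie apart, from LINC00475 with a difference of 1.80 to LINC02693 with -2.29.

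After the GC and length correction, 1 of the 10 remained called by limma, LINC00667 (-1.56, adjusted p = 0.0413). Calls were then 0.617% of the 162 LINC genes, against 2.06% of all genes tested. Several differences stayed about as large without a call: LINC00702 was at 1.08 (adjusted p = 0.0521), LINC00475 at 1.93 (0.0630), LINC02506 at -1.0 (0.0553) and LINC02693 at -2.03 (0.0834). LINC00662 (0.19), LINC01703 (-0.97), LINC01006 (-0.66), LINC02055 (0.54) and LINC01029 (0.43) became smaller. The interaction had the strongest relation with GC content, with a Spearman correlation of -0.38 across the 162 genes and -0.65 across all genes, and its part in the calls was not tested beyond this correction. The count of 10 became 3 without library 1 or library 2 of siNC with poly(dA:dT), and 4 without library 1 of siNC with DMSO or library 2 of siQ61K with poly(dA:dT). It became 6 without library 2 of siNC with DMSO or library 1 of siQ61K with DMSO. With library 3 of siQ61K with DMSO and library 2 of siQ61K with poly(dA:dT) both left out, LINC00973 was called and none of the 10.

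**Figure D5:**
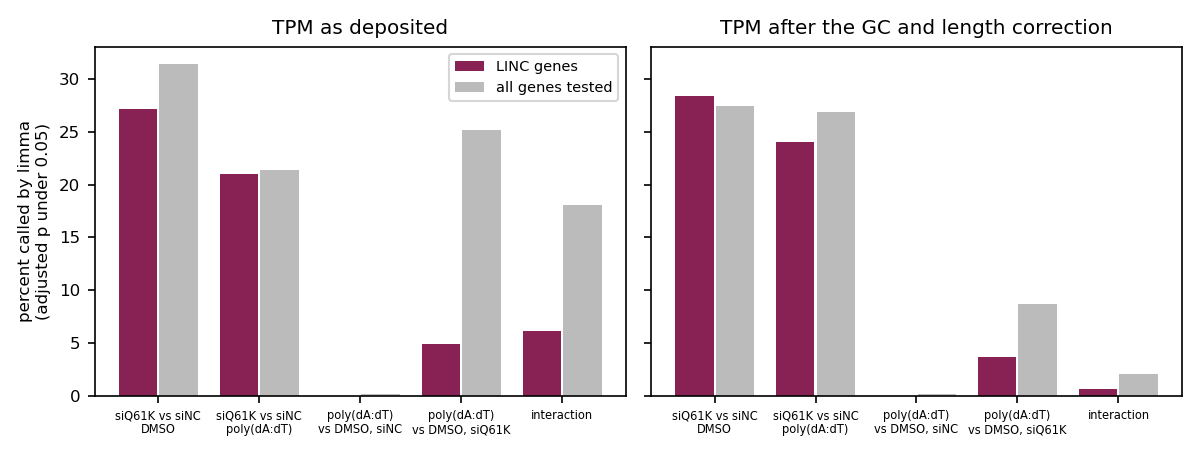
Percent of the 162 LINC genes (dark red) and of all genes tested (grey) called by limma in each comparison, from the TPM as deposited (left) and after the GC and length correction (right). The pairs of bars are close in both siQ61K comparisons, and the LINC bars are lower for poly(dA:dT) under siQ61K (4.94% against 25.2%) and for the interaction (6.17% against 18.1%). The bars show shares of calls and not the size of the changes.

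The nearest protein-coding gene on either side of each called LINC gene was taken from the gene order of GENCODE 29. Under DMSO, 53 such genes were tested for the 44 LINC genes and 24 were called (45.3%, against 31.5% of all genes tested), 15 in the direction of their LINC gene and 9 in the opposite one. With poly(dA:dT), 8 of 41 were called (19.5%, against 21.4%), 7 in the same direction. These shares were not tested, and a shared direction says nothing of which gene acts on which.

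LINC00452 and GAS6, the ligand of the AXL, MERTK and TYRO3 receptors, rose together. GAS6 went from 123 ± 22.2 to 439 ± 52.5 TPM under DMSO (log2 fold change 1.84) and from 142 ± 20.1 to 322 ± 34.2 TPM with poly(dA:dT) (1.18). LINC01433 and SMOX, the spermine oxidase, fell together. SMOX went from 119 ± 2.80 to 47.8 ± 2.77 TPM (-1.30) and from 153 ± 18.4 to 39.1 ± 0.25 TPM (-1.94). LINC02615 and PGRMC2, a membrane protein that binds haem, rose together, with PGRMC2 at 0.78 under DMSO and 1.98 with poly(dA:dT). These 3 coding genes kept their calls after the GC and length correction.

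LINC02310 and LINC00640 lie between TMX1 and FRMD6, a FERM domain protein linked to Hippo signalling. FRMD6 was higher by 0.56 under DMSO and by 0.84 with poly(dA:dT), as LINC02310 was (1.08 and 1.52), whereas TMX1 was lower under DMSO (-0.56). LINC02454 and its neighbour HMGA2, a chromatin protein of mesenchymal tumours, fell under DMSO (-1.55 and -0.63), and HMGA2 fell again with poly(dA:dT) (-0.54). LINC02434 and FRG1 fell in both comparisons, FRG1 by -0.65 and -0.43, but FRG1 lies 1780 kb away, and TRIML1, 12.3 kb away on the other side, is the closer coding gene. LINC01137 and ZC3H12A, an RNase that degrades inflammatory mRNAs, rose under DMSO (1.62 and 0.77), but ZC3H12A was at -0.05 with poly(dA:dT) and was not called under DMSO after the GC and length correction (0.34). LINC00963 and LINC01503 lie between IER5L and NTMT1, which were higher under DMSO (1.54 and 0.52). IER5L and NTMT1 were at -0.04 and -0.31 with poly(dA:dT), where neither was called.

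Long noncoding RNAs, all but LINC01138 outside the LINC names, were taken from 4 lists chosen by function. Of 19 tested nuclear or abundant lncRNAs, 1 rose and 3 fell with siQ61K under DMSO, and 2 rose and 4 fell with poly(dA:dT). Of all genes tested, 16.6% were higher and 14.8% lower under DMSO, and 8.71% and 12.6% with poly(dA:dT). The balance of this list under DMSO depended on the correction: 4 were higher and 1 lower after the GC and length correction, and 0 and 5 under median-of-ratios scaling. HOTAIRM1, transcribed in the HOXA cluster, fell in both (log2 fold change -1.67 and -1.55). MALAT1, a nuclear speckle RNA, fell under DMSO (-0.78) and was at 0.41 with poly(dA:dT), where it was not called. The call under DMSO was lost after the GC and length correction (-0.55). NEAT1, the scaffold of paraspeckles, was lower with poly(dA:dT) under siNC (-0.69, and -0.49 and not called after the same correction) and higher with siQ61K in the poly(dA:dT) libraries (0.66).

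Of 24 snoRNA host RNAs, 4 rose and 7 fell with siQ61K under DMSO, and 6 rose and 2 fell with poly(dA:dT), to be read against the same shares of all genes. After the GC and length correction the counts were 2 and 4 under DMSO and 8 and 2 with poly(dA:dT). SNHG3 (-1.23 and -0.80) and SNHG16 (-1.06 and -0.58) fell in both. SNHG7 rose in both (0.83 and 1.09), but its fold change under DMSO was 0.30 and not called after the GC and length correction. Of 11 tested microRNA host RNAs, 1 rose and 3 fell under DMSO, with MIR100HG at -1.59, MIR222HG at -1.50 and MIR22HG at 1.22. MIR100HG (-0.80) and MIR22HG (0.88) repeated their direction with poly(dA:dT), where 3 of the 11 rose and 2 fell. The list medians under DMSO were -0.17, -0.24 and -0.22 for the nuclear, snoRNA host and microRNA host lists, against 0.01 for all genes.

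Of 8 tested interferon-linked lncRNAs, 3 rose with poly(dA:dT) under siQ61K: BISPR (1.28), which lies beside BST2, MIR155HG (1.14), the host of miR-155, and PSMB8-AS1 (1.12). Of all genes tested, 6.92% were called higher there. The list median was 0.82, against -0.15 for all genes. None of the 8 rose under siNC, and NEAT1 fell. Only 0.122% of all genes tested were called under siNC, so the absence of higher calls there says little about this list. MIR155HG also stands in the microRNA host list and NEAT1 in the nuclear list. LINC01138, another of the 8, is also one of the LINC genes described above. After the GC and length correction 2 of the 3 were called, and with library 3 of siQ61K with DMSO and library 2 of siQ61K with poly(dA:dT) left out none was, although the list median was then 0.92. Of the 10 interferon-stimulated check genes, 9 were called higher in that setting.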

How the data were processed

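RNA from HT1080 cells was sequenced in 12 libraries made with a NEBNext Ultra RNA kit, per the labels' protocols. The authors deposited 1 table of TPM (abundance scaled for transcript length and library total), made with Salmon 0.8.0 on build hg19 per the submitters' processing notes. TPM keeps no depth. Which annotation was used, and how transcripts were summed to genes, is not given in the sources used here. Columns were tied to samples by their names, which is an inference. A further 984 rows that share a symbol were left out of the tests, LINC01238 among them.

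Genes at 1 TPM or more in at least 3 libraries (14722) were tested as log2(TPM + 1) with limma 3.58.1 in R 4.3.3, in 1 fit over the 4 groups with a variance trend, with Benjamini-Hochberg adjustment and a threshold of 0.05. The script was tested on simulated data. Annotation came from GENCODE 29, and promoters from RefSeq. Alternatives were 2 other pseudocounts, 2 other filters, 2 scalings, other variance settings, sample weights, only the groups compared, a replicate block, a lowess correction for GC content and length, and leaving out each library. Leaving out 2 siQ61K libraries together was added after seeing the data. Deviations of same-numbered libraries from their group means correlated at -0.26 to 0.04 between siNC with DMSO and the other groups. Among those other groups the correlations were 0.04 to 0.23, so weak pairing there is not excluded.

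Named genes were NRAS, LINC02154, the 6 most abundant LINC genes, up to 10 called in each direction and comparison, those called in the interaction, the 3 on either side of the threshold, neighbours of named genes, and up to 4 called genes of each list. The lists were nuclear or abundant lncRNAs, snoRNA hosts, microRNA hosts, interferon-linked lncRNAs, interferon-stimulated check genes and ERK target check genes. The genes and lists were chosen with earlier results of these data known.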

Additional observations from a re-analysis of the deposited data

Results flagged for a closer look

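The interaction term of limma was called for 10 LINC genes (adjusted p under 0.05 over all genes tested). These were 6.17% of the 162, against 18.1% of all genes tested, so the count is not read as particular to the LINC genes. After the GC and length correction only LINC00667 remained called. The log2 difference was 0.65 for LINC01029, 1.10 for LINC00702, 0.69 for LINC00662, 0.82 for LINC02055 and 1.80 for LINC00475. It was -1.37 for LINC00667, -0.92 for LINC01006, -1.0 for LINC02506, -2.29 for LINC02693 and -1.65 for LINC01703.

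LINC00702 stood at 24.4, 19.98 and 19.8 TPM with siNC and DMSO and at 12.4, 15.7 and 18.7 TPM with siNC and poly(dA:dT). With siQ61K it stood at 8.86, 13.7 and 14.4 TPM and at 23.6, 18.8 and 17.1 TPM. Each response had groups that did not overlap, in opposite directions. LINC00667 shares exon sequence with LINC00526 on the opposite strand, LINC00662 with other genes on its opposite strand, and LINC01006 with RNF32. LINC02693 shares it with genes on both strands. The reads of these genes cannot be told apart from those of their partners. None of the 10 kept its call in all settings.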

How the results depend on the processing

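In the siQ61K comparison under DMSO the count of 44 LINC calls became 28 with no filter and 26 to 47 with single libraries left out. With poly(dA:dT) the count of 34 ranged from 28 to 37 with single libraries left out. The poly(dA:dT) response under siNC had 3 calls with sample weights and 0 to 1 with single libraries left out, and 0 under the other alternatives. The response under siQ61K (8 calls) became 4 with no filter, 31 with sample weights, 5 with only the groups compared, 0 with the 2 siQ61K libraries left out together, and 1 to 18 with single libraries left out. The interaction (10 calls) became 3 with no filter, 23 with sample weights, 1 after the GC and length correction, 1 with those 2 libraries left out, and 3 to 14 with single libraries left out. With the replicate block the 5 counts were 43, 34, 0, 8 and 8, and the numbers did not pair the libraries across all groups (correlations of same-numbered deviations from -0.26 to 0.23). LINC00662 under siQ61K with DMSO, at -0.03, was reversed by the GC and length correction (0.38, adjusted p = 0.0345 by limma). The cause of these changes was not tested. The setting with no filter tested more genes, and the left-out settings used fewer libraries.

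Of the named calls, 16 of 24 under DMSO and 18 of 24 with poly(dA:dT) in the siQ61K comparisons were kept in every setting, as were 0 of 8 for poly(dA:dT) under siQ61K and 0 of 10 in the interaction. Depth is unknown, and LINC genes under 2 TPM had the widest spread between replicate libraries, so a missing call at that level does not show that a gene did not differ.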
